A study of Drosophila melanogaster with 18 samples.

Results

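The cytochrome P450 genes of the fly brain are described here over females and males at 3, 7 and 14 days after eclosion. The members were all rows of the expression table whose current FlyBase symbol is Cyp followed by a number, with 1 abundant CYP4G gene left out by the rule. The rule uses symbols and no measured value, although the family itself was picked with earlier results of these data known. The rule took 84 of the 13439 genes in the table. Of these, 82 were P450 genes, and the other two, Cyp1 and Cyp40, share the prefix but are cyclophilins, which are peptidyl-prolyl isomerases. Another 2 symbols of this form, both pseudogenes, had no row and were not analysed here. Cyp40 passed the test in 1 comparison, with a log2 fold change (LFC) of -0.81 (SE 0.28, limma adjusted p = 0.082) in 14-day against 7-day males, and Cyp1 in none. The Cyp40 call was lost in edgeR (adjusted p = 0.12) and without 14-day males replicate 1 (0.414), 14-day males replicate 2 (0.124), 7-day males replicate 1 (0.304), 7-day males replicate 2 (0.175) or either 14-day female pool (0.101). All P450 results below are for the 82 genes.

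Each library was made from total RNA of 100 pooled brains of virgin Oregon wild-type Drosophila melanogaster, so that sex and age were the only labelled differences and no group carried a transgene or a drug. Values for 16 libraries were used: 3 of 3-day females, 2 of 7-day females, 2 of 14-day females, and 3 of males at each age. The labels list 18 samples, and the other two, 7-day females replicate 3 and 14-day females replicate 1, had no values in the table. The labels do not say whether replicate pools came from separate cultures, so p-values measure the spread between these pools only.

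P450s are heme enzymes that insert 1 atom of oxygen into their substrate, taking electrons from a reductase. In insects the CYP3 and CYP4 clans hold many enzymes that act on plant toxins, insecticides, fatty acids and pheromones, the CYP2 and mitochondrial clans include makers and inactivators of the molting hormone ecdysone, and mitochondrial P450s receive their electrons from ferredoxin. In the fly many of these genes are best known from the gut, Malpighian tubules and fat body, while several have been tied to the nervous system, such as Cyp6a20 to aggression between males and Cyp4d21 (also called sxe1) to male courtship. Several P450 genes of ecdysone synthesis carry other symbols and are treated with that pathway below.

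Between 2924715 and 8664494 reads per library fell on genes (median 6094046), and P450 reads made up 0.115% to 0.361% of them (median 0.155%), the highest share being that of 14-day males replicate 1. The marker genes of neurons and glia were present in every library, at unlike levels. The summed neuron markers were 77033 to 94120 normalized reads in 3-day females, and 29138 and 59775 in 14-day females. The highest sum of any library was that of 7-day females replicate 1 (104611), while replicate 2 of that group had 48590. Male pools ran from 59649 to 67857 at 3 days and from 46682 to 53266 at 7 days. In 14-day males the sum was 14211 in replicate 1, beside 38203 and 42012 in the other pools. None of the 5 neuron markers passed the test in any of the 9 pairwise comparisons. The summed markers of the gut were far higher in 3-day females (7127 to 20420 normalized reads) than in 3-day males (171 to 299), and those of the fat body, which surrounds the brain in the head, were 6129 to 13464 against 4282 to 5364. Retina, muscle, hemocyte and oenocyte markers were also present, with 2 of 3 tested hemocyte genes rising in F3v7, F3v14, M7v14 and M3v14 and all 6 retina genes falling in F3v14. The level of 178 genes that brains are thought to use little or not at all (taste receptors, cuticle and eggshell proteins), taken here as the background of scarce transcripts, had a median of 0 to 2.43 normalized reads in 3-day females, 5.75 to 11.6 in 3-day males, 2.83 to 11.2 in 7-day males and 11.8 to 38.8 in 14-day males, the highest again in 14-day males replicate 1. In 7- and 14-day females it was 6.31 to 15.5 and 12.7 to 13.7. Values below are reads normalized for library depth by the authors, called normalized reads, and n is the number of libraries.

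The brain libraries held reads of nearly every P450 gene, most of them at a low level. A library had at least 1 read for 74 to 82 of the 82 genes, and 71 genes had a read in all 16 libraries. The mean over the 16 libraries was at least 100 normalized reads for 25 genes, 20 to 100 for 46 and 5 to 20 for 7. The remaining 4 fell below the minimum mean of 5 and were not tested: Cyp313a2 (4.89), Cyp6a17 (4.20), Cyp313a5 (3.17) and Cyp12d1-d (3.17). The 78 tested genes were 95.1% of the P450 genes, beside 92.6% of all genes, and the median mean was 60.2 normalized reads for P450 genes and 91.5 for all genes. The summed P450 level was 9346 ± 1943 normalized reads in 3-day females (SD, n = 3), 8203 ± 463 (SD, n = 2) in 7-day females and 8339 ± 264 (SD, n = 2) in 14-day females. In males it was 8055 ± 729 at 3 days, 7334 ± 605 at 7 days and 10018 ± 2538 at 14 days (SD, n = 3 each), the last group holding the highest pool, replicate 1 at 12777, and the widest spread. These sums were not tested. Fewer cells of a type and less RNA per cell cannot be told apart in such bulk libraries.

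Per kilobase of exon, the most abundant member was Cyp4s3, at 304.7 normalized reads per kb, followed by Cyp9f2 at 288.9, Cyp28d1 at 214.5, Cyp6w1 at 210.5 and Cyp6g1 at 166.2. Next came Cyp6d5 (155.2), Cyp4g15 (147.9), Cyp12b2 (135.0), Cyp317a1 (131.0) and Cyp4p1 (115.8). Cyp6g1 is known for the resistance to DDT and neonicotinoids that its overexpression gives, and Cyp4g15 belongs to the CYP4G family, whose relatives act in the making of cuticular hydrocarbons. The CYP3 clan (38 genes) had a median of 27.7 normalized reads per kb, the CYP4 clan (31 genes) 28.4, the mitochondrial clan (9 genes) 45.6 and the CYP2 clan (4 genes) 38.8. Within the CYP4 clan the level ran from 2.03 to 304.7 per kb, so members of 1 clan differed far more than the clan medians did. In all, 11 members reached 100 per kb and 12 stayed under 10.

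**Figure D1:**
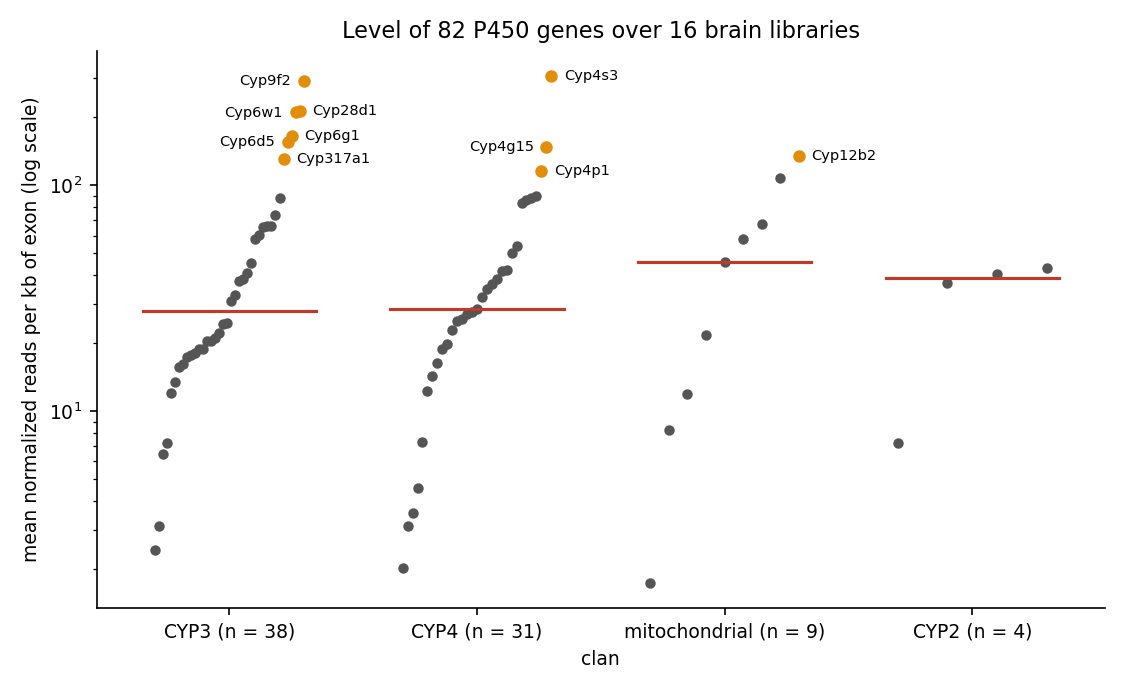
Mean level of each of the 82 P450 genes in normalized reads per kilobase of exon over 16 libraries (log axis), by clan; each point is a gene, the red line is the clan median and the 10 highest genes are orange and named. Cyp4s3 (304.7) and Cyp9f2 (288.9) stood highest, while the clan medians lay between 27.7 and 45.6.

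The abundant members varied between pools to unlike degrees. Cyp4s3 was measured in 3-day females at 609, 968 and 1037 normalized reads, at 7 days at 603 and 549, and at 14 days at 864 and 381. In males it had 784, 652 and 782 at 3 days, 799, 571 and 654 at 7 days, and 179, 972 and 751 at 14 days. Its value in 14-day males replicate 1 was the lowest by far, while the other 14-day male pools lay within the range of the other groups. Cyp4s3 passed no test. Cyp12b2, a mitochondrial clan member, stayed between 167 and 343 normalized reads in all 16 libraries, and Cyp6w1 between 372 and 795, neither passing a test. Cyp317a1 ran from 291 in 14-day males replicate 1 to 692 in 3-day females replicate 3 and passed none either.

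The members tied to behavior, Cyp6a20, Cyp4d21 and Cyp6a17, had means of 11.6, 49.3 and 4.20 normalized reads. Cyp6a20 was at 28.04, 17.5 and 21.9 normalized reads in 3-day females against 6.66, 6.57 and 13.4 in 3-day males, with 0.944 to 23.0 in all other libraries, and passed no test. Cyp4d21 had 6.73, 277 and 2.43 normalized reads in 3-day females, so replicate 2 alone held a level that no other library reached; the next highest was 102 in 14-day males replicate 1, and the gene passed no test. Cyp6a17, linked to temperature preference, had at most 18.2 normalized reads in any library, and 3 libraries had none. Cyp4g15 ran from 299 to 618 normalized reads, Cyp303a1, needed for sensory bristles, from 78.5 to 223, and Cyp49a1, a mitochondrial clan member, from 112 to 277. Cyp6a8, an insecticide resistance gene, had 6.61 to 76.3, Cyp6a23 a mean of 36.0 and Cyp310a1 a mean of 26.0. None of Cyp4g15, Cyp303a1, Cyp49a1, Cyp6a8, Cyp6a23 and Cyp310a1 passed a test. Cyp12d1-p and Cyp12d1-d are near-identical copies of a gene induced by foreign chemicals, so the split of reads between them (means of 37.0 and 3.17) is uncertain.

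Of the 78 tested genes, 43 passed an adjusted p of 0.1 (limma on log2 of normalized reads plus 1, Benjamini-Hochberg over all 12448 tested genes) in at least 1 of 13 comparisons, and are called differentially expressed genes (DEGs). They gave 85 calls, 21 of them being DEGs in 1 comparison and 6 in 4 or more (Cyp28d1, Cyp312a1, Cyp313a3, Cyp4e1, Cyp6a22 and Cyp9f2). The other 35 never passed. LFCs are on the scale of log2 of normalized reads plus 1, which understates changes of the scarcest genes, and are female minus male or older minus younger.

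To ask which P450 genes differed between the sexes on average over the ages, the female minus male differences at 3, 7 and 14 days were averaged (FvM). Such a mean can pass through a difference at 1 age. Cyp4d2 and Cyp4d14, neighbours on the X chromosome, were lower in females, by 2.20-fold and 2.09-fold. Cyp313a3 was also lower on average, but its sexes overlapped at 7 days and its call was lost with a pseudocount of 5. Cyp9b2 and Cyp28d1 were higher. These 5 DEGs were 6.41% of the tested members, where 2.4% of all tested genes passed (1.79% higher and 0.611% lower in females). The median LFC was 0.00 over the members and -0.08 over all genes. The count was 2 without 7-day females replicate 1, 18 without 7-day females replicate 2, 12 without 3-day females replicate 3, and 3 without any 1 of 3-day females replicate 1, 14-day females replicate 2, 14-day females replicate 3, 3-day males replicate 3, 7-day males replicate 2, 7-day males replicate 3 and 14-day males replicate 2.

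Cyp4d2 (X, 2176006 to 2178728, plus strand, Release 6) stood in females at 160, 123 and 116 normalized reads at 3 days, 112 and 122 at 7 days, and 125 and 101 at 14 days. Males had 302.9, 196 and 299 at 3 days, 339.8, 323 and 305.02 at 7 days, and 191, 229 and 252 at 14 days. All 7 female pools were below all 9 male pools, the highest female value being 160 and the lowest male value 191. The FvM LFC was -1.14 (SE 0.15, limma adjusted p = 0.00027). Age by age, the LFC at 3 days was -0.98 (SE 0.24, adjusted p = 0.026). The 7-day value was -1.46 (SE 0.27, adjusted p = 0.069), and the 14-day value -0.98 (SE 0.27, adjusted p = 0.30). The change of this difference with age did not pass (adjusted p = 0.58, 0.62 and 1 for 3 to 7, 7 to 14 and 3 to 14 days). The FvM call held without each library in turn and under every alternative run. The 3-day call was lost without 3-day males replicate 1 (limma adjusted p = 0.144) and after quantile normalization.

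Cyp4d14 (X, 2173415 to 2175315, minus strand) starts 690 bases from Cyp4d2 and is transcribed away from it. It had 43.7, 57.9 and 84.3 normalized reads in 3-day females against 206, 154 and 222 in 3-day males. In 7-day females it had 99.2 and 158 against 195, 217 and 178 in males, and in 14-day females 105 and 81.1 against 225, 130.1 and 169.8. Female pools were the lower ones at each age and the sexes did not overlap within an age, though 7-day females replicate 2 was above 14-day males replicate 2. The LFC was -1.66 at 3 days (SE 0.31, limma adjusted p = 0.0070) and -1.06 in FvM (SE 0.19, adjusted p = 0.0069), and both calls held without each library and under every alternative run. In females the gene rose from 3 to 7 days (LFC 1.05, SE 0.35, adjusted p = 0.096). Its correlation over the 16 libraries was 0.62 with the background of scarce transcripts and -0.79 with the summed fat body markers. The part of either was not tested. Over the 16 libraries Cyp4d2 and Cyp4d14 had a correlation of 0.72 (Pearson's r of log2 values, as in all correlations here), a description over libraries that share their depth and sex. Of their exonic bases, 98.7% and 97.2% are overlapped by genes on the opposite strand (antisense RNA genes for Cyp4d2, and an antisense RNA gene and ND-B14.5A for Cyp4d14). The libraries do not keep strand, so reads of either gene cannot be told apart from those of its antisense partners, which were not analysed here.

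Cyp9b2 (2R, 7130277 to 7132139) had 155, 237 and 67.3 normalized reads in 3-day females against 44.9, 29.6 and 24.3 in 3-day males. In 7-day females it had 116 and 36.7 against 33.0, 40.3 and 29.9, and in 14-day females 92.0 and 87.4 against 33.9, 37.5 and 26.3. Females were the higher sex and overlapped males only at 7 days, through replicate 2 of the females. The LFC was 2.05 at 3 days (SE 0.50, limma adjusted p = 0.025) and 1.47 in FvM (SE 0.31, adjusted p = 0.022). The first call was lost without 3-day females replicate 1 (limma adjusted p = 0.113) and after quantile normalization. The FvM call was lost without 7-day females replicate 1 (limma adjusted p = 0.166). Cyp9b2 followed the summed fat body markers over the 16 libraries (r = 0.87, as did Cyp6w1 with 0.81). Of the 7 fat body markers, 3 were DEGs at 3 days, all higher in females, and none of the 7 was at 0 in all libraries. The part of fat body RNA in the Cyp9b2 difference was not tested.

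Cyp28d1 (2L, 5210460 to 5212445), known for nicotine resistance, had 546, 526 and 496 normalized reads in 3-day females against 354, 378 and 311.6 in 3-day males. At 7 days females had 365 and 265 against 288, 269.6 and 279.6, and at 14 days 359 and 402 against 231, 220.2 and 259. Females were higher without overlap at 3 and 14 days and overlapped males at 7 days. The FvM LFC was 0.48 (SE 0.12, limma adjusted p = 0.063), and the call was lost without any 1 of 9 libraries. At 14 days the LFC was 0.68 (SE 0.21, adjusted p = 0.52).

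**Figure D2:**
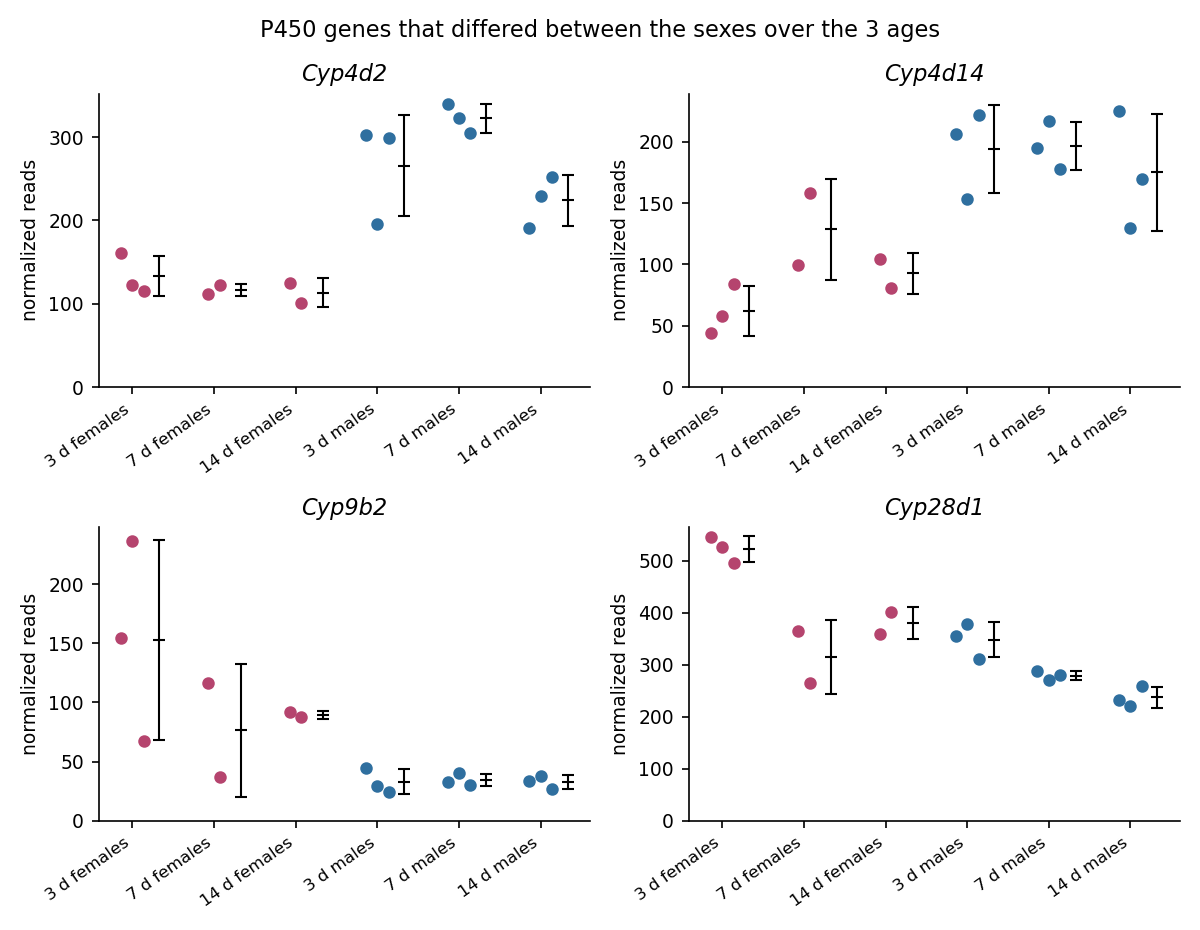
Normalized reads of Cyp4d2, Cyp4d14, Cyp9b2 and Cyp28d1 in each library by sex and age; points are libraries (n = 2 or 3 per group), dashes are group means and whiskers are SDs. All female pools lay below all male pools for Cyp4d2, with 160 as the highest female value and 191 as the lowest male value.

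At 3 days 16 of the 78 tested members differed between the sexes, with 3 pools of each sex. These 16 DEGs (20.5%, all genes 11.4%) held both directions: 6 were higher in females (7.69%, all genes 3.04%) and 10 lower (12.8%, all genes 8.34%). Cyp28d1, Cyp4d8, Cyp4e1, Cyp6d5, Cyp6g1 and Cyp9b2 were the higher ones, and Cyp28a5, Cyp312a1, Cyp313a3, Cyp4ad1, Cyp4d14, Cyp4d2, Cyp6a16, Cyp6a18, Cyp6a22 and Cyp9h1 the lower. The median LFC over the members was -0.07 and that of all genes -0.12, and after quantile normalization the members' median was 0.14, with 4 DEGs, 2 in each direction.

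The gene with the widest difference was Cyp313a3 (3R, 12237138 to 12239266), a CYP4 clan member. It had 0, 5.26 and 1.62 normalized reads in 3-day females against 76.5, 45.2 and 39.0 in 3-day males, so every male pool was at least several times every female pool. The LFC was -4.36 (SE 0.73, limma adjusted p = 0.0050). Cyp312a1 had 7.85, 3.51 and 21.1 normalized reads in 3-day females against 119.8, 68.2 and 47.3 in 3-day males (LFC -2.95, SE 0.70, adjusted p = 0.022). The other male-biased members were Cyp4ad1 (LFC -3.41), Cyp6a18 (-3.39), Cyp6a16 (-3.05), Cyp6a22 (-2.02), Cyp9h1 (-1.54) and Cyp28a5 (-1.28), with adjusted p from 0.037 to 0.093. Of the 10 male-biased members, Cyp4d2 and Cyp4d14 apart, each rose and fell with the background of scarce transcripts over the 16 libraries (r from 0.78 to 0.95). Cyp4d14 had an r of 0.62 and Cyp4d2 had 0.11. Of 139 tested background genes, 36 were themselves lower in 3-day females and none higher, so genes picked for being lower there tend to correlate with it. Cyp312a1, Cyp4ad1, Cyp6a18, Cyp6a16 and Cyp313a3 also ran against the summed gut markers (r from -0.76 to -0.70). The part of the background or of gut RNA in these differences was not tested.

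Cyp4e1 (2R, 8447451 to 8449745) had 74.0, 172 and 154 normalized reads in 3-day females against 1.66, 9.86 and 12.1 in 3-day males. All female pools were above all male pools (LFC 4.12, SE 0.84, limma adjusted p = 0.011). Cyp4e1 was the only tested member that followed the summed gut markers above 0.7 (r = 0.89, n = 16 libraries), while 6 lay below -0.7. All 7 gut markers were DEGs higher in 3-day females. Of the exonic bases of Cyp4e1, 4.63% are overlapped by Mal-A1, which is 1 of those markers. None of the 7 was at 0 in all libraries, and the part of gut RNA in the Cyp4e1 difference was not tested. Cyp6d5 had 423, 714 and 259 normalized reads in 3-day females against 221, 162 and 89.4 in 3-day males, without overlap (LFC 1.53, SE 0.42, adjusted p = 0.038). Cyp6g1 had 647, 705 and 274 against 278, 212 and 169.9, where the lowest female pool was just below the highest male pool (LFC 1.21, SE 0.42, adjusted p = 0.095). Cyp4d8 was at 51.6, 22.8 and 22.7 in females and 15.0, 3.29 and 9.58 in males (LFC 1.79, SE 0.61, adjusted p = 0.087).

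The 3-day calls of Cyp313a3, Cyp4d14 and Cyp4e1 held without each library and under every alternative run. After quantile normalization only these genes and Cyp4d8 passed. The number of member DEGs was 5 without 3-day females replicate 1, 5 without 3-day males replicate 1, 9 without 3-day males replicate 2, 10 without 3-day females replicate 2 and 10 without 3-day males replicate 3; the Cyp312a1 call was lost without 3-day males replicate 1 (adjusted p = 0.137), and the Cyp6d5 call without 3-day females replicate 1 (0.13), 3-day females replicate 2 (0.148) or 3-day males replicate 3 (0.142).

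At 7 days Cyp4d2 was the only member DEG between the sexes (1.28% of members, all genes 0.0562%, of which 0.00803% lower in females), and its call was lost without any 1 of 9 libraries, with an LFC from -1.39 to -1.52. Of the members higher in females, the smallest p was that of Cyp18a1, the enzyme that inactivates ecdysone by hydroxylation, with 235 and 175 normalized reads in females against 34.0, 48.9 and 74.8 in males, without overlap (LFC 2.00, limma adjusted p = 0.43). At 14 days no member passed in limma (all genes 0.329%), with 7 members at an unadjusted p under 0.05 (8.97%, all genes 7.13%), 0 DEGs in edgeR and 1, Cyp4d2, in DESeq2. The median LFC was 0.37 over the members and 0.09 over all genes at 7 days, and -0.36 and -0.12 at 14 days.

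In females, DEGs among the members were found between 3 days and each later age, and not between 7 and 14 days, where 2 pools were compared with 2. From 3 to 7 days (F3v7) 7 members were DEGs (8.97%, all genes 7.67%): Cyp313a3, Cyp6a22, Cyp312a1 and Cyp4d14 rose (all genes 6.93%) and Cyp4e1, Cyp28d1 and Cyp9f2 fell (all genes 0.739%), beside 7 rising and 3 falling in edgeR and 9 and 4 in DESeq2. From 3 to 14 days (F3v14) 18 were DEGs (23.1%, all genes 21.7%), 15 rising (all genes 17.1%) and 3 falling (all genes 4.61%). From 7 to 14 days (F7v14) none was in limma (all genes 0.0%), with 1 member at an unadjusted p under 0.05 (1.28%, all genes 2.21%) and 0 in edgeR and DESeq2. In F7v14 the smallest p in each direction belonged to Cyp6a19 (LFC 1.94) and Cyp9f2 (LFC -0.47), both with a limma adjusted p of 1. The members' shares in either direction were close to those of all genes, and in F3v7 the falling members were 3.85% of those tested, where 0.739% of all genes fell, a share that rests on 3 genes. The split of DEGs in F3v14 was 15 rising and 3 falling as deposited and 2 rising and 5 falling after quantile normalization, and the members' median LFC turned with it, from 0.27 (all genes 0.15) to -0.25 (all genes -0.01). In F3v7 it turned likewise from 0.34 (all genes 0.12) to -0.16 (all genes -0.02).

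Cyp9f2 (3R, 12403340 to 12406028), a CYP3 clan gene and the most abundant member per kb after Cyp4s3, fell with age. The female pools held 768, 1051 and 543 normalized reads at 3 days, 438 and 423 at 7 days, and 308.3 and 313.3 at 14 days. No pool of an older group reached the lowest pool of the younger one. The LFC was -0.82 in F3v7 (SE 0.25, limma adjusted p = 0.078) and -1.29 in F3v14 (SE 0.25, adjusted p = 0.0075), the latter call being lost without 14-day females replicate 3 (0.138). Its level ran against the background of scarce transcripts (r = -0.83, n = 16 libraries) and with the summed glial markers (r = 0.86), of which 2 of 5 were DEGs falling in F3v14, with summed levels of 3439 to 11601 at 3 days and 2059 to 2561 at 14 days. None of the 5 was at 0 in all libraries, and the part of glial RNA was not tested.

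Cyp313a3 rose from 0 to 5.26 normalized reads in 3-day females to 27.96 and 69.4 at 7 days and 50.6 and 83.6 at 14 days. The LFC was 4.15 in F3v7 (SE 0.81, limma adjusted p = 0.025) and 4.70 in F3v14 (SE 0.81, adjusted p = 0.0058). Cyp6a22 (2R, 14871366 to 14873705) rose from 8.97, 8.77 and 6.48 to 47.8 and 35.9 and then 67.9 and 96.1 (F3v14 LFC 3.18, SE 0.64, adjusted p = 0.0081). Neither gene's 3-day pools overlapped the older ones. Cyp4e1 fell from 74.0, 172 and 154 to 17.1 and 3.99 and then 10.4 and 22.5 (F3v7 LFC -3.73, SE 0.93, adjusted p = 0.040, and F3v14 LFC -2.95, SE 0.93, adjusted p = 0.046). Over the same ages 6 of 7 gut markers fell in F3v7 and all 7 in F3v14. Cyp28d1 fell from 496 to 546 at 3 days to 365 and 265 at 7 days (LFC -0.75, SE 0.21, adjusted p = 0.061) but stood at 359 and 402 at 14 days.

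The other members that rose in F3v14 were Cyp4ad1 (LFC 4.29), Cyp6a18 (3.83), Cyp304a1 (3.45), Cyp6a16 (3.34), Cyp312a1 (3.18), Cyp316a1 (3.07), Cyp6d2 (2.87), Cyp4d1 (2.87), Cyp309a2 (2.45), Cyp6a19 (2.45), Cyp313b1 (2.30), Cyp4p3 (1.42) and Cyp28a5 (1.30), with limma adjusted p from 0.016 to 0.087. Most were scarce at 3 days: Cyp304a1, a CYP2 clan gene, had 0, 0 and 3.24 normalized reads then and 17.3 and 16.2 at 14 days, and Cyp4d1 had 5.61, 5.26 and 0 and then 27.6 and 21.2. Of the 18 DEGs in F3v14, 13 had a correlation above 0.7 with the background of scarce transcripts, where 26.9% of all tested genes had. Of 139 tested background genes, 58 rose and 3 fell in the same comparison. Genes picked for rising in F3v14 therefore tend to correlate with that background. The share among all genes called was not computed, and the part of the background was not tested. The third falling member, Cyp313a1, had 177, 979 and 38.1 normalized reads at 3 days and 34.5 and 21.2 at 14 days (LFC -2.76, SE 0.86, adjusted p = 0.044), most of its level coming from replicate 2.

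Single libraries decided much of the female count. Without 14-day females replicate 3 no member passed in F3v14, without 14-day females replicate 2 there were 6, and without 3-day females replicate 1 there were 11. In F3v7 the count was 0 without 7-day females replicate 2, 2 without 3-day females replicate 1 and 13 without 7-day females replicate 1, and it was 4 without any 1 of 3-day females replicate 2, 14-day females replicate 2, 14-day females replicate 3 and 14-day males replicate 2.

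**Figure D3:**
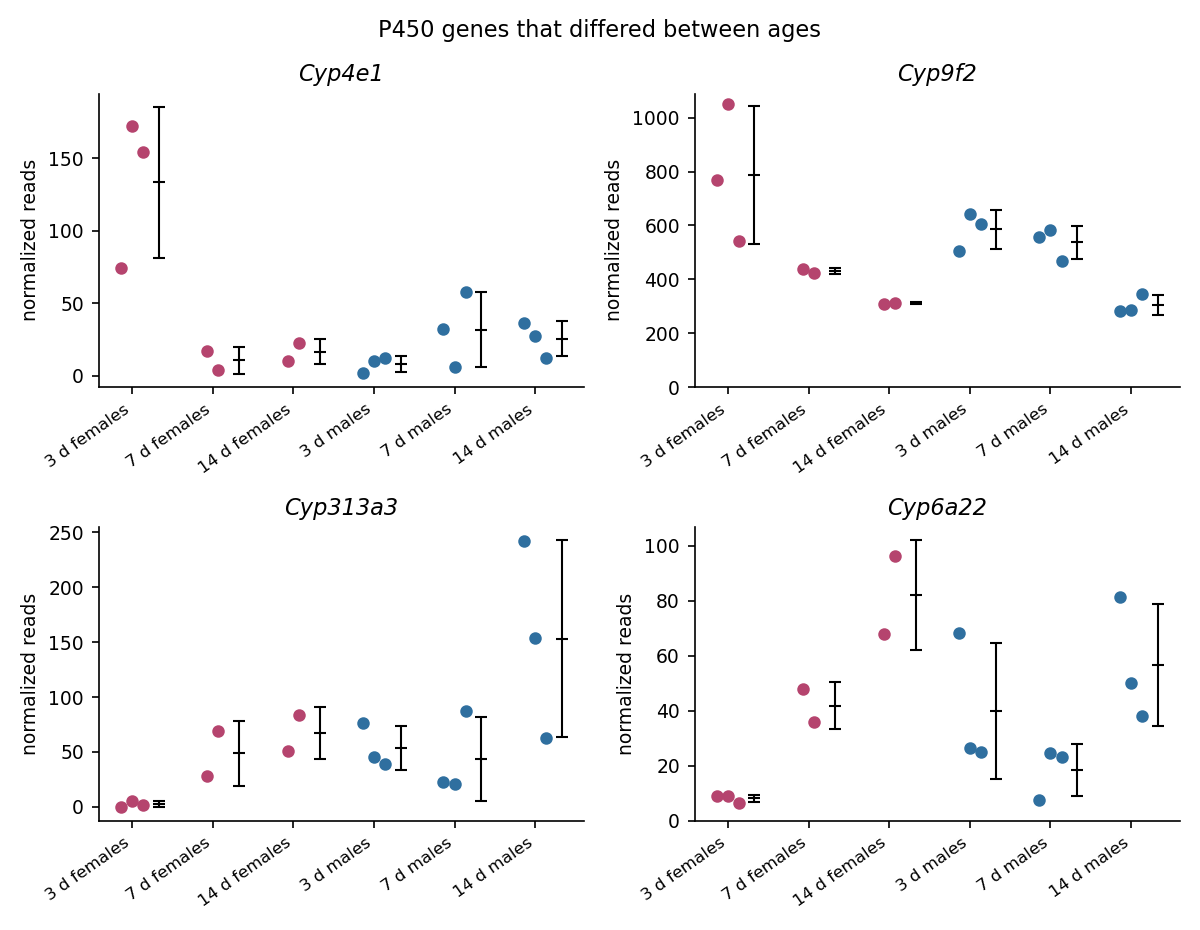
Normalized reads of Cyp4e1, Cyp9f2, Cyp313a3 and Cyp6a22 in each library by age and sex; points are libraries (n = 2 or 3 per group), dashes are group means and whiskers are SDs. Cyp9f2 fell from 543 to 1051 in 3-day females to 308.3 and 313.3 at 14 days, and Cyp313a3 rose from at most 5.26 to 50.6 and 83.6.

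In males, DEGs among the members were found between 14 days and each younger age, and not between 3 and 7 days. From 7 to 14 days (M7v14) 27 members were DEGs (34.6%, all genes 21.2%), 25 of them rising (all genes 14.7%) and 2, Cyp9f2 and Cyp12e1, falling (all genes 6.54%). From 3 to 14 days (M3v14) 9 were (11.5%, all genes 11.5%), 6 rising (all genes 6.09%) and 3 falling (all genes 5.43%). From 3 to 7 days (M3v7) none was in limma (all genes 0.193%), with 2 members at an unadjusted p under 0.05 (2.56%, all genes 3.0%) and 0 in edgeR and DESeq2. In M3v7 the smallest p in each direction belonged to Cyp4e1 (LFC 1.70) and Cyp6a21 (LFC -1.59), both with a limma adjusted p of 1.00. The members' median LFC in M7v14 was 0.96 and that of all genes 0.20, with 59 of 78 members above 0. The share of all genes above 0 was not counted. Without 14-day males replicate 1 the members' median was 0.67 (all genes 0.11). After quantile normalization it was 0.23 (all genes -0.06), with 42 of 78 members above 0, and 7 DEGs rose and 4 fell. In M3v14 the median was 0.71 (all genes 0.24) as deposited and 0.20 (all genes -0.04) after quantile normalization, under which 0 members rose and 3 fell in limma.

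The rising members of M7v14 came from every clan. In the mitochondrial clan Cyp12a5 rose from 33.0, 53.2 and 49.3 normalized reads to 302.8, 133 and 81.8 (LFC 1.73, SE 0.49, limma adjusted p = 0.076). Cyp301a1, which acts in cuticle formation, rose from 17.0, 20.1 and 50.8 to 116, 61.3 and 68.6 (LFC 1.56, SE 0.51), and Cyp12d1-p from 6.61, 12.2 and 33.6 to 178, 92.6 and 40.2 (LFC 2.54, SE 0.82). No pool of the older age overlapped the younger for these genes, and 14-day males replicate 1 held the highest value of each. In the CYP2 clan Cyp18a1 rose from 34.0, 48.9 and 74.8 to 337, 73.8 and 93.6 (LFC 1.39, SE 0.49, adjusted p = 0.083), with overlap, as 14-day replicate 2 lay below the highest 7-day pool.

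In the CYP3 clan 12 of the 25 rising genes were found, led by Cyp6a16 with 2.83, 20.8 and 17.9 normalized reads at 7 days and 216, 76.3 and 47.8 at 14 days (LFC 3.00, SE 0.82, limma adjusted p = 0.076). Cyp6g1 rose from 154, 114 and 233 to 587, 444 and 227, with overlap through 14-day replicate 3 (LFC 1.28, SE 0.42). Cyp6a2, an insecticide-metabolizing enzyme, rose from 24.5, 11.5 and 8.97 to 63.0, 40.0 and 39.5 without overlap (LFC 1.69, SE 0.65), and Cyp6t3, tied to larval ecdysone synthesis, from 41.5, 80.5 and 90.5 to 293, 118 and 125 (LFC 1.27, SE 0.41). Cyp28a5 rose from 67.0, 60.4 and 121 to 326, 231 and 196 (LFC 1.62, SE 0.44). The others of this clan were Cyp309a2 (LFC 2.74), Cyp6a18 (2.88), Cyp6d2 (2.49), Cyp6d4 (2.04), Cyp6a19 (1.90), Cyp6a22 (1.65) and Cyp6a9 (1.39). In the CYP4 clan the rising genes were Cyp4ad1 (LFC 2.73), Cyp313a4 (2.66), Cyp4e3 (2.27), Cyp4c3 (2.15), Cyp312a1 (2.05), Cyp313a3 (1.91), Cyp4d20 (1.46), Cyp4p1 (1.30) and Cyp4p3 (1.25). Adjusted p ran from 0.076 to 0.098 over all 27.

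Cyp9f2 in males had 506, 642 and 607 normalized reads at 3 days, 558, 584 and 469 at 7 days, and 281, 288 and 347 at 14 days. The 14-day pools lay below all younger pools (M7v14 LFC -0.81, SE 0.22, limma adjusted p = 0.076, and M3v14 LFC -0.93, SE 0.22, adjusted p = 0.069). The M7v14 call was lost without 7-day males replicate 1 (0.304), 7-day males replicate 2 (0.174), 14-day males replicate 1 (0.414) or 14-day males replicate 2 (0.114). Cyp12e1 fell from 110.4, 162 and 113 to 44.8, 80.1 and 63.8 (LFC -1.04, SE 0.38, adjusted p = 0.087). In M3v14 Cyp4ac3 fell from 119.8, 113 and 135 to 38.8, 45.1 and 77.0 (LFC -1.24, SE 0.38, adjusted p = 0.087), and Cyp28d1 fell from 354, 378 and 311.6 to 231, 220.2 and 259 (LFC -0.55, SE 0.19, adjusted p = 0.098). The risers of M3v14 were Cyp6a14 (LFC 2.75), Cyp4d8 (2.49), Cyp309a1 (2.17), Cyp4c3 (2.104), Cyp301a1 (1.47) and Cyp12a5 (1.46). Cyp4d8 rose from 15.0, 3.29 and 9.58 to 67.8, 51.3 and 34.7 without overlap (adjusted p = 0.071).

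Single libraries decided the male counts too. The M7v14 count was 0 without any 1 of 7-day males replicate 1, 7-day males replicate 2, 14-day males replicate 1 and 14-day males replicate 2, 12 without 14-day females replicate 3, 13 without 14-day females replicate 2 and 42 without 14-day males replicate 3. The M3v14 count was 0 without any 1 of 3-day males replicate 2, 3-day males replicate 3, 14-day males replicate 1 and 14-day males replicate 2, 2 without 7-day males replicate 2 or either 14-day female pool, 4 without 3-day females replicate 1 and 26 without 14-day males replicate 3. With the counts recovered from the table, edgeR called 0 of all 12448 genes in M7v14 (3634 at an unadjusted p under 0.05) and 1 member, falling, in M3v14. DESeq2 called 29 rising and 4 falling tested members in M7v14, and 18 rising and 4 falling in M3v14, beside Cyp12d1-d, which is below the minimum mean. Of the 27 DEGs in M7v14, 12 had a correlation above 0.7 with the background of scarce transcripts, where 26.9% of all tested genes had. Of 139 tested background genes, 40 rose and 1 fell in M7v14, so genes picked for rising there tend to correlate with it. The share among all genes called was not computed, and the part of that background was not tested.

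Cyp312a1, Cyp313a3, Cyp6a22 and Cyp9f2 were DEGs in both F3v7 and M7v14. These comparisons share no group, but all libraries entered the estimate of spread used in both, so their calls are not independent. The 4 genes were 57.1% of the 7 F3v7 DEGs and 14.8% of the 27 M7v14 DEGs, and each moved in the same direction in both. Over all genes the 542 shared DEGs were 56.7% of 955 and 20.5% of 2639. The 4 genes had correlations of 0.92, 0.95, 0.84 and -0.83 with the background of scarce transcripts, which rose in both comparisons. Of all tested genes 26.9% had a correlation above 0.7, and the part of that background was not tested. No call of F3v7 or M7v14 held without each library. F3v14 and M3v14 shared Cyp9f2, 5.56% of 18 and 11.1% of 9, where all genes shared 18.7% of 2700 and 35.3% of 1434.

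**Figure D4:**
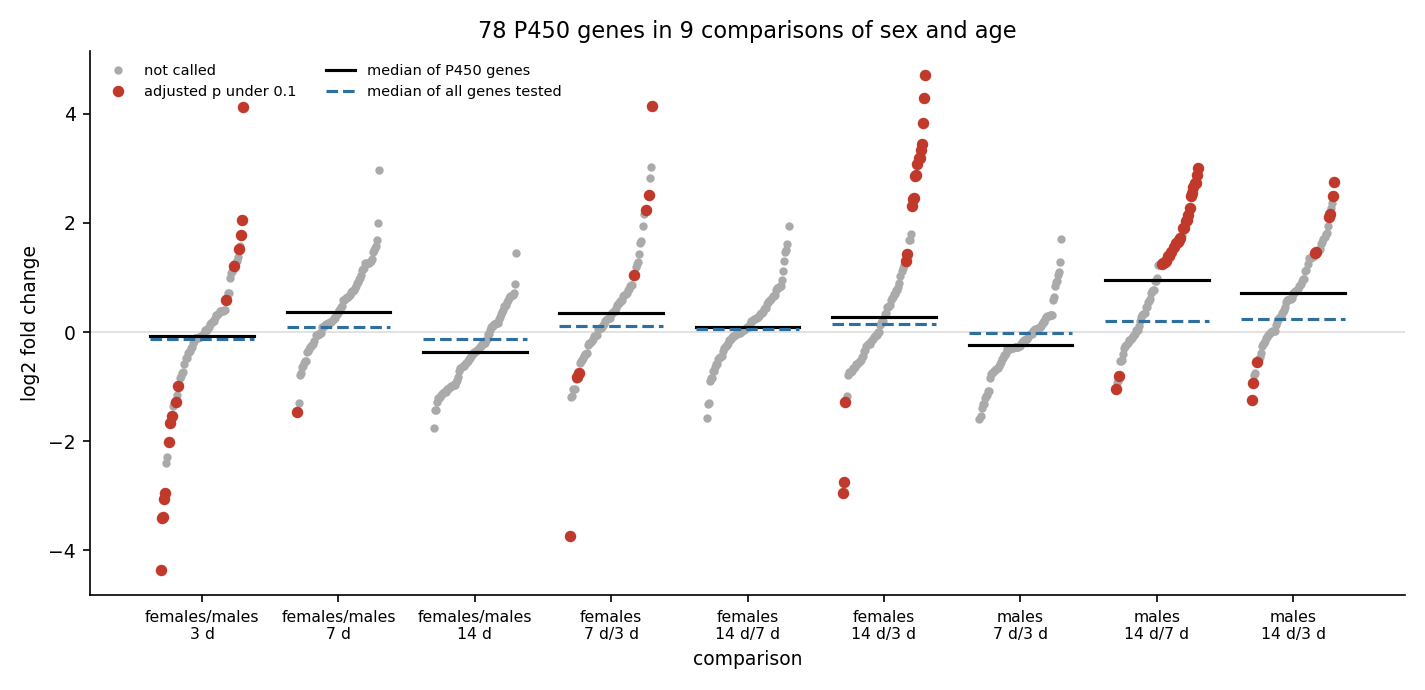
LFCs of the 78 tested P450 genes in the 9 pairwise comparisons (female over male, or older over younger); each point is a gene, red points are DEGs at an adjusted p under 0.1, and solid and dashed lines are the medians of the P450 genes and of all tested genes. In males from 7 to 14 days the medians were 0.96 and 0.20, and the rising DEGs lay between 1.25 (Cyp4p3) and 3.00 (Cyp6a16).

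Whether a change with age differed between the sexes was tested as female change minus male change. From 3 to 7 days 2 members passed (2.56%, all genes 0.546%). Cyp4e1 fell in females, and in males, where the change did not pass, it had 1.66, 9.86 and 12.1 normalized reads at 3 days and 32.1, 5.75 and 57.6 at 7 days (difference of LFCs -5.43, SE 1.25, limma adjusted p = 0.087). In males the summed gut markers were 171, 299 and 265 normalized reads at 3 days and 1704, 198 and 2302 at 7 days, in the same order of pools. Of the 7 markers 2 rose in M3v7 (all genes 0.0402%), and the part of gut RNA was not tested. Cyp313a3 rose in females, while 7-day males had 22.7, 20.8 and 87.5 after 76.5, 45.2 and 39.0 at 3 days (difference 4.70, SE 1.09, adjusted p = 0.087). The Cyp4e1 call was lost without any 1 of 9 libraries and the Cyp313a3 call without any 1 of 10; the count was 7 without 7-day females replicate 1 and 8 without 7-day males replicate 3. From 7 to 14 days no member passed in limma (all genes 0.0%), with 10 at an unadjusted p under 0.05 (all genes 7.67%) and 0 in edgeR and DESeq2; the smallest p in each direction were of Cyp12e1 (1.08, adjusted p = 0.578) and Cyp6t3 (-2.11, adjusted p = 0.577). From 3 to 14 days none passed in limma (all genes 0.0%), with 7 at an unadjusted p under 0.05 (all genes 5.33%), 0 in edgeR and 2, Cyp313a1 and Cyp4e1, in DESeq2; the smallest p were of Cyp4e1 (-4.70, adjusted p = 0.617) and Cyp313a3 (3.34, adjusted p = 0.866).

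The members were compared with the background of scarce transcripts over the 16 libraries, which share sex, age and depth. The median correlation was 0.31 for the 78 tested members and 0.15 for all tested genes. It was above 0.7 for 18 members (23.1%, all genes 26.9%), highest for Cyp6a16 (0.95) and Cyp313a3 (0.95), and below -0.7 for 2, Cyp9f2 (-0.83) and Cyp28d1 (-0.77). Members averaging 100 normalized reads or more had a median of -0.04, and those of 20 to 100 a median of 0.44. Cyp4d2 stood near 0 (0.11) and Cyp4d14 at 0.62.

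**Figure D5:**
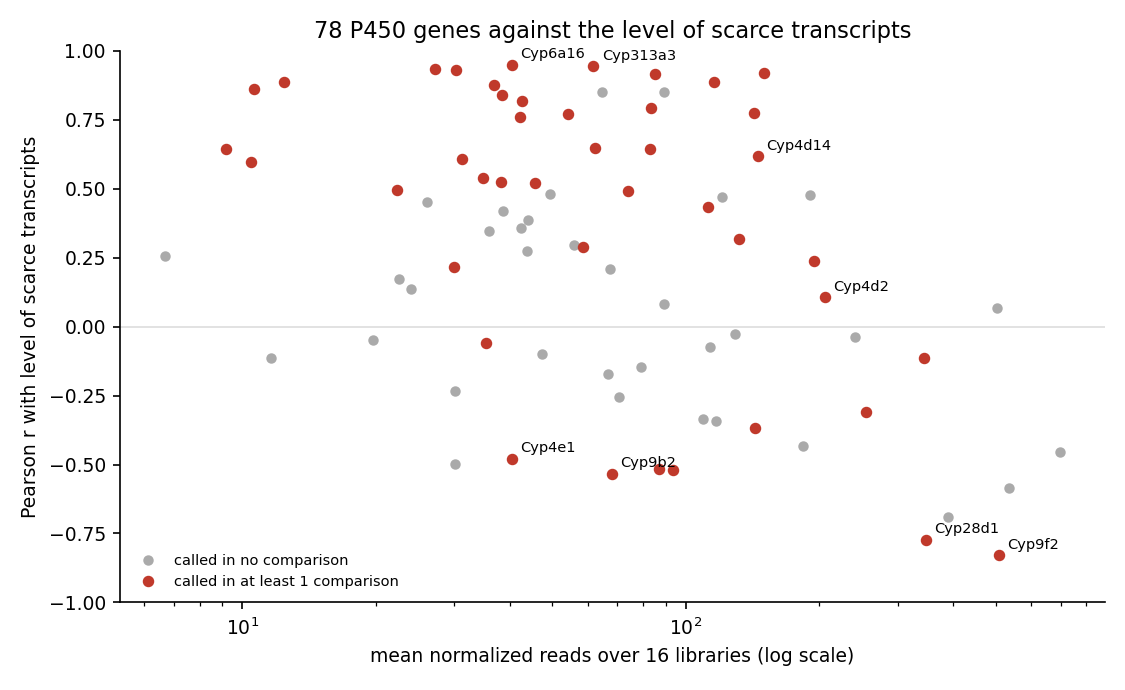
Correlation of each of the 78 tested P450 genes with the median level of 178 scarce transcripts over 16 libraries, against the gene's mean normalized reads (log axis); each point is a gene, and red points are DEGs in at least 1 comparison. Cyp6a16 and Cyp313a3 reached 0.95, Cyp9f2 lay at -0.83 and Cyp4d2 at 0.11.

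Position in the genome was not used to choose the members. They lie on 2R (34 genes), 3R (16), X (13), 2L (13) and 3L (6), and 45 of them form 16 clusters in which neighbours are at most 10000 bases apart. The largest cluster holds 9 genes, from Cyp6a22 to Cyp317a1 (2R, 14871366 to 14903095), whose levels ran from 2.43 normalized reads per kb for Cyp6a17 to 131 for Cyp317a1, so close neighbours were expressed at very unlike levels. Over the 24 pairs of tested neighbours within clusters the median correlation was 0.25, beside 0.18 over 2979 other pairs of tested members. Single pairs ran from 0.83 for Cyp6a19 and Cyp6a9, whose exons overlap each other by 20.8% and 20.2%, and 0.72 for Cyp4d14 and Cyp4d2 to -0.64 for Cyp6a8 and Cyp317a1 and -0.74 for Cyp28d2 and Cyp28d1. These are descriptions, since all pairs share the same libraries. Exons of another gene overlap 12 members by more than 10% of their exonic bases, 5 of them DEGs.

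The electron donors of P450s were measured in the same libraries. The list of 6 genes also held Cyt-b5-r, whose role as a donor was not tested. Cpr, the P450 reductase, had 268 to 614 normalized reads and passed no test, nor did dare (adrenodoxin reductase), Fdx1, Fdx2 (ferredoxins) and Cyt-b5. Cyt-b5-r, a cytochrome b5-related gene, had 698, 498 and 436 normalized reads in 3-day females against 119.8, 78.9 and 69.0 in 3-day males, 608 and 224 against 154, 116 and 194 at 7 days, and 1164 and 984 against 220.4, 218 and 165 at 14 days. All female pools were above all male pools (FvM LFC 2.103, SE 0.20, limma adjusted p = 1.1e-05, with 2.61 at 3 days, adjusted p = 0.0005, 1.28 at 7 days, adjusted p = 0.479, and 2.42 at 14 days, adjusted p = 0.0044). It also rose in F3v14 (LFC 1.00, adjusted p = 0.076) and M3v14 (LFC 1.19, adjusted p = 0.079).

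Of 8 genes of ecdysone synthesis, 6 were tested, most of which are P450 genes with symbols of their own. In 3-day females nvd (LFC -2.38, limma adjusted p = 0.088) and sro (LFC -1.21, adjusted p = 0.089), which are not P450 genes, were lower than in males. In M7v14 sro (1.19, adjusted p = 0.082) and nvd (2.103, adjusted p = 0.094) rose, as did sro in F3v14 (1.39, adjusted p = 0.056) and the P450 gene spo in M3v14 (1.502, adjusted p = 0.090). Of 6 regulators of detoxification, 3 were DEGs, all in M7v14: Keap1 (LFC 0.97, adjusted p = 0.076) and ss (1.95, adjusted p = 0.076) rose and maf-S (-0.59, adjusted p = 0.093) fell, whereas cnc, Hr96 and tgo never passed. In M7v14 21.2% of all genes passed, and no gene of any list did in edgeR or without 14-day males replicate 1, where limma called 0 of 12448 genes (1490 at an unadjusted p under 0.05).

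Enzymes that add glutathione or sugars to the products of P450s moved as follows. Of 34 tested glutathione transferases, GstT4 was higher (LFC 1.93, limma adjusted p = 0.0070) and GstD4 lower (LFC -3.40, adjusted p = 0.032) in 3-day females than in males. In F3v14 GstO1 and GstD4 rose and GstT4, GstE1, GstE2 and GstE12 fell. In M7v14 GstO1, GstD2, GstD4 and GstD5 rose and GstT2 fell, and in M3v14 GstO1, GstD9 and GstD5 rose and GstE1 fell. Of 32 tested UDP-glycosyltransferases, Ugt302C1 was higher and 8 (Ugt307A1, Ugt37E1, Ugt37A1, Ugt37C1, Ugt49B2, Ugt303B3, Ugt303B1 and Ugt35D1) were lower in 3-day females than in males, and Ugt37E1 was lower in FvM (LFC -1.24). In F3v7 6 rose (Ugt307A1, Ugt37C2, Ugt37E1, Ugt37A1, Ugt37C1 and Ugt303B1) and Ugt35B1 fell, and in F3v14 11 rose, among them Ugt36F1, Ugt302E1, Ugt303B2 and Ugt303B3, and Ugt35B1 fell. In M7v14 8 rose (Ugt37E1, Ugt37A1, Ugt50B3, Ugt37C1, Ugt302E1, Ugt49B2, Ugt303B1 and Ugt35D1), and in M3v14 Ugt50B3 and Ugt35D1 rose and Ugt35B1 fell. Of all genes 14.7% rose in M7v14, 6.93% in F3v7, 17.1% in F3v14 and 6.09% in M3v14. The shares falling were 6.54% in M7v14, 0.739% in F3v7, 4.61% in F3v14 and 5.43% in M3v14. In 3-day females 8.34% were lower and 3.04% higher, and 0.611% were lower in FvM. The M7v14 and M3v14 calls of both enzyme families were lost in edgeR and without 14-day males replicate 1, and after quantile normalization 0 UDP-glycosyltransferases rose in F3v7 and 1 in F3v14 (limma). The background of scarce transcripts rose in 26 of 139 tested genes in F3v7, 58 in F3v14 and 40 in M7v14, and its part in these counts was not tested.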

How the data were processed

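Total RNA was extracted from pooled brains and sequenced as unstranded TruSeq libraries. Per the labels and the methods of the study, the authors trimmed reads with Trimmomatic (0.39), aligned them with STAR (2.7.3a) to the D. melanogaster genome with FlyBase release 6 annotation, and normalized gene counts with DESeq2 (2.10, with R 2.14.1, as the submitters' processing notes list them). The deposited values are signal: read counts divided by a size factor of each library. The authors removed 2 libraries as outliers. Whole reads were recovered for 100% of the values within 1e-06.

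Genes averaging 5 or more normalized reads (12448) were fitted with limma (3.58.1, trend) on log2 of the value plus 1, with 1 mean per group and all 6 groups in 1 model. Adjusted p-values are Benjamini-Hochberg over all tested genes, and an adjusted p under 0.1 was called. The fit was tested on simulated data. edgeR (4.0.16) and DESeq2 (1.42.0) were run on the recovered counts as alternatives, beside a pseudocount of 5, no filter, quantile normalization, a replicate block, only the groups compared, and each library left out. R 4.3.3 was used, and tables and plots were made with pandas 2.3.3, numpy 2.4.6 and matplotlib 3.10.9 in python 3.11.15. Symbols, exon lengths and overlaps came from Release 6 annotations. Depth limits precision most for genes of few reads.

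Named are all members called, the 10 highest per kb, the smallest p per direction in each comparison, members with known roles, and called genes of the other lists with the redox partners. The members and lists were chosen with earlier results of these data known.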

Additional observations from a re-analysis of the deposited data

Results flagged for a closer look

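The change from 3 to 7 days differed between the sexes for 2 members, by the test of that difference itself. For Cyp4e1 the female change minus the male change was -5.43 on the log2 scale (SE 1.25, limma adjusted p = 0.087), and for Cyp313a3 it was 4.70 (SE 1.09, limma adjusted p = 0.087). Both 7-day female pools lay below all 3-day female pools for Cyp4e1 and above them for Cyp313a3, whereas the male pools of these ages overlapped for both genes. Both calls were lost with a pseudocount of 5, no filter or quantile normalization, and neither held without each library. Cyp4e1 followed the summed gut markers (r = 0.89) and Cyp313a3 the background of scarce transcripts (r = 0.95). The part of either was not tested.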

How the results depend on the processing

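Of 85 calls, 5 held without each library and under every other alternative run: Cyp313a3, Cyp4d14 and Cyp4e1 at 3 days (F3vM3) and Cyp4d14 and Cyp4d2 in FvM. No called member changed the sign of its LFC under any alternative run, but under quantile normalization the members' median LFC turned from 0.34 to -0.16 in F3v7, 0.27 to -0.25 in F3v14, 0.10 to -0.07 in F7v14 and -0.07 to 0.14 in F3vM3. The counts of member DEGs moved by more than 1.5 times as follows, and the cause was not tested. Quantile normalization gave 4 in F3vM3, 0 in F7vM7, F3v7 and SexByAge3v7, 7 in F3v14, 11 in M7v14 and 3 in M3v14. A pseudocount of 5 gave 4 in F3v7, 15 in M3v14 and 0 in SexByAge3v7 (the test of whether the change from 3 to 7 days differed between the sexes), where no filter also gave 0. Only the groups compared gave 0 in F7vM7, F3v7, M7v14, M3v14 and SexByAge3v7. edgeR gave 0 in F7vM7 and M7v14 and 1 in M3v14. DESeq2 gave 2 in F7vM7, 1 in F14vM14, 15 in FvM, 13 in F3v7, 23 in M3v14 (Cyp12d1-d among them, which is below the minimum mean), 6 in SexByAge3v7 and 2 in SexByAge3v14. Without 7-day females replicate 2 and 14-day males replicate 1 together, the pools of the highest background in their own groups (medians of 15.5 and 38.8 normalized reads, with 21.3 in 14-day males replicate 2, which was kept), an alternative chosen after seeing the data, the counts were 4 in F7vM7, 17 in FvM, and 0 in F3v7, M7v14, M3v14 and SexByAge3v7. Leaving out each library in turn gave 5 to 23 in F3vM3, 0 to 1 in F7vM7, 2 to 18 in FvM, 0 to 13 in F3v7, 0 to 19 in F3v14, 0 to 42 in M7v14, 0 to 26 in M3v14 and 0 to 8 in SexByAge3v7. A fit with the replicate number as a block gave 0 in F7vM7, M7v14 and SexByAge3v7, 3 in F3v7 and 2 in M3v14. The labels do not say whether samples with the same number shared anything else. Over 35 such pairs the median correlation of their deviations from the group means was -0.05 (lowest -0.62, highest 0.43). Over 71 other pairs it was 0.01 (lowest -0.47, highest 0.60). Deviations within a group of 2 or 3 pools cancel, so these medians cannot show whether a batch was shared. Groups of 2 or 3 pools, low counts in most members and a background that differed between libraries limit these comparisons, and most calls lay close to the threshold.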
